A study of Mus musculus with 15 samples.

Results

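The nuclear pore and nuclear transport genes of CD8+ T cells were taken as the protein-coding genes of GENCODE vM21 whose symbol is Nup followed by a digit, together with Tpr, Ranbp2, Pom121, Ndc1, Seh1l, Sec13, Rae1, Ran, Rangap1, Rcc1, Xpo1, Cse1l, Kpna2, Kpnb1, Tnpo1 and Ipo7. These were 37 of the 55536 genes in the count table, 21 found by the Nup symbol and 16 named. All 37 were among the 24262 genes that passed the filter on low counts, and 35 had a mean of 10 CPM (counts scaled to a common library total) or more. Nup210l and Nup62cl did not. The rule uses gene names alone, and it was drawn up with earlier results of these data known.

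Libraries of poly(A) RNA from CD8+ T cells were compared between 2 groups of 5. T cells of OT-I Tg C57BL/6J mice carry a transgenic T cell receptor for the SIINFEKL peptide of ovalbumin. They were transferred into C57BL/6J recipients, which then received the peptide with a control antibody (Ag) or the peptide with agonist antibodies against OX40 (CD134) and 41BB (CD137), costimulatory receptors of the TNF receptor family (Ag+Costim). CD8+ T cells were sorted from spleen and lymph nodes, at day 4 by the labels and earlier by the study's text. By that text the sort took the transferred OT-I cells, using a donor surface marker and the OT-I receptor chains. Both groups share the transgenic receptor, the transfer and the peptide. Naive OT-I libraries are in the labels, and their counts were not analysed here.

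The nuclear pore is a channel of repeated protein rings set into the nuclear envelope. An outer ring on each face (the Y complex) and an inner ring form the scaffold, membrane proteins anchor it, and proteins with phenylalanine-glycine repeats fill the centre. Filaments reach into the cytoplasm, and a basket reaches into the nucleus. Importins and exportins carry cargo through the channel. The GTPase Ran sets their direction, because Ran is bound to GTP in the nucleus and to GDP in the cytoplasm. Activated T cells depend on this traffic for transcription factors moving in and for mRNA and ribosomal subunits moving out.

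The estimated counts summed to between 59.6 and 449 M (mega) counts in the Ag libraries (Ag replicate 3 the lowest) and to between 332 and 639 M in the Ag+Costim libraries. Between 20714 (replicate 5) and 51778 (replicate 3) genes had a count in Ag, and between 28727 and 30340 in Ag+Costim. All 8 CD8 T cell markers were detected in every library, summing to 6138 to 12288 CPM in Ag and 8430 to 10105 CPM in Ag+Costim. The 6 B cell markers summed to 657 to 1219 CPM in Ag and 530 to 782 CPM in Ag+Costim, and the 5 erythroid markers to 14.7 to 1099 CPM (the highest in Ag replicate 3) and 3.79 to 39.3 CPM. In Ag+Costim replicate 2, 1 erythroid marker was at 0. The part of these cells in the results was not tested. The study's text treats the libraries as separate biological replicates, while the labels do not say whether each came from its own animal. If they did not, p-values measure only the spread between these libraries.

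Nearly all members were higher on average in Ag+Costim, but none passed the test. The median log2 fold change of the 37 members was 0.69, against -0.32 for all genes tested and 0.24 for the 8620 genes at 10 CPM or more. The sign was positive for 35 of 37 members, all those at 10 CPM or more, against 37.7% of all genes tested and 75.6% of genes at 10 CPM or more. Among the 35 members, Ranbp2 turned negative when libraries were scaled to total counts (-0.12) or by upper quartiles (-0.07). Using edgeR's quasi-likelihood test, 0 of 37 members had an adjusted p under 0.05, as did 0% of all genes tested, and member values ran from 0.141 (Kpnb1) to 0.877 (Nup62cl). At an unadjusted p under 0.05 there were 19 members, all of them higher in Ag+Costim, where 7.89% of all genes tested and 20.3% of genes at 10 CPM or more were higher at that level. In 15 members the lowest Ag+Costim library exceeded the highest Ag library, and in 0 the reverse was seen. The former held for 4.48% of all genes tested and 11.3% of genes at 10 CPM or more. The 15 turned on the scaling and the filter, since 10 members did not overlap with total counts, 7 with DESeq2 size factors, 3 with upper quartiles and 23 with no filter on low counts. All further statements on overlap use the TMM factors.

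Other tests counted more members. DESeq2 called 7 members higher (Kpnb1, Nup210, Nup160, Nup98, Tnpo1, Nup50 and Nup188), where it called 8.28% of genes at 10 CPM or more. Limma voom with library quality weights called 33 members higher, where it called 57.7% of such genes. The weights were 0.0986 for Ag replicate 2 and 0.0656 for Ag replicate 5, the lowest of the 10. Scaling changed the level from which members were read: the median of genes at 10 CPM or more was 0.24 with TMM factors and 0.0065 with total counts. The TMM factors were 1.40, 0.909, 1.19, 1.25 and 0.828 in Ag replicates 1 to 5 and 0.890 to 0.932 in Ag+Costim. Relative to that median the members lay 0.45 higher with TMM factors and 0.52 higher with total counts.

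**Figure D1:**
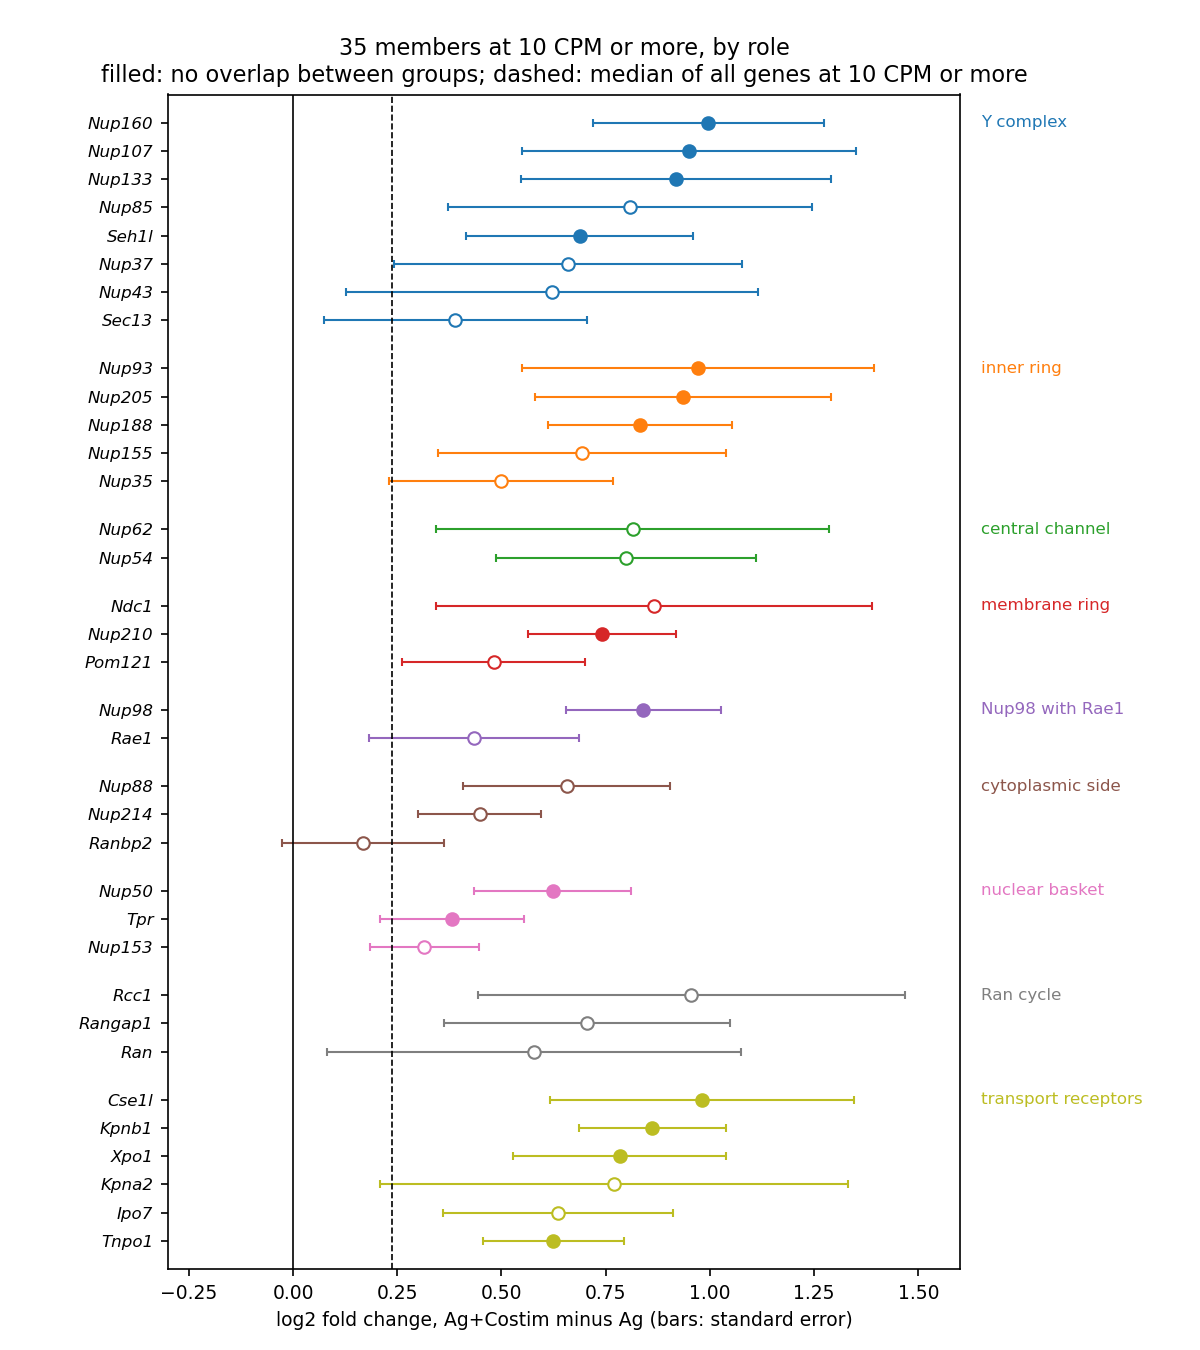
Log2 fold change of Ag+Costim over Ag for the 35 members at 10 CPM or more (x axis, bars are standard errors), grouped by role. Filled points are members whose 5 Ag+Costim libraries all lay above the 5 Ag libraries, and the dashed line is the median of genes at 10 CPM or more, 0.24. Every point lies right of 0, from 0.17 for Ranbp2 to 0.996 for Nup160.

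Ran had the highest level of all members, and the 3 genes of the Ran cycle overlapped between the groups. Ran (ENSMUSG00000029430.13, chr5:129020069-129024323, mm10) was at 307, 1716, 888, 315 and 2033 CPM in Ag replicates 1 to 5 and at 1475, 1474, 1424, 1904 and 1569 CPM in Ag+Costim replicates 1 to 5. Replicates 1 and 4 of Ag were below every Ag+Costim library, while replicates 2 and 5 were within or above the Ag+Costim range, so the groups overlapped (log2 fold change 0.58, SE 0.50, adjusted p = 0.472). Without Ag replicates 1 and 4, an alternative chosen after the data were seen, the log2 fold change of Ran was 0.03. Rcc1, the chromatin-bound factor that loads Ran with GTP, was at 30.03, 155, 139, 26.1 and 200.8 CPM in Ag and at 187, 196, 202, 251.96 and 229.9 CPM in Ag+Costim. Ag replicate 5 was the only Ag library within the Ag+Costim range of Rcc1 (log2 fold change 0.96, SE 0.51, adjusted p = 0.300). Rangap1, which makes Ran hydrolyse GTP in the cytoplasm, was at 92.4, 322, 206, 102 and 304 CPM in Ag and 305, 307, 312, 387 and 363 CPM in Ag+Costim. Ag replicate 2 overlapped the Ag+Costim range (log2 fold change 0.71, SE 0.34, adjusted p = 0.280). Rcc1 overlaps the host gene Snhg3 on the same strand, and the count of neither gene is certain there.

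Importin beta and its partners differed in how widely they ranged. Kpnb1 (ENSMUSG00000001440.5, chr11:97159714-97187881), importin beta 1, carries cargo bound to an importin alpha into the nucleus. It was at 73.3, 125, 109, 75.7 and 109 CPM in Ag and at 163, 172, 165, 200.7 and 194 CPM in Ag+Costim. The groups did not overlap, and Kpnb1 had the lowest adjusted p of all members (log2 fold change 0.86, SE 0.18, adjusted p = 0.141; DESeq2 adjusted p = 0.00021). Kpna2 (ENSMUSG00000018362.14, chr11:106988629-106999541), an importin alpha that binds the classical nuclear localisation signal, was at 110.2, 915, 523, 143 and 1122 CPM in Ag and 921, 919, 829.5, 1080.3 and 1047 CPM in Ag+Costim. Its highest Ag library lay 10.2 times above its lowest, the widest range among the 35 members, and the groups overlapped (log2 fold change 0.77, SE 0.56, adjusted p = 0.401). Without Ag replicates 1 and 4 its log2 fold change was 0.18, and without Ag replicates 2 and 5 it was 2.05. The annotated pseudogene Kpna2-ps was at 0 in every library. Cse1l, which returns importin alpha to the cytoplasm, was at 69.3, 247, 199, 74.4 and 234 CPM in Ag and 297, 296, 276, 412 and 347 CPM in Ag+Costim, without overlap (log2 fold change 0.98, SE 0.36, adjusted p = 0.248).

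The remaining receptors showed the same low pair of Ag libraries. Xpo1, the exportin for proteins with a leucine-rich export signal, was at 70.2, 164, 161, 77.6 and 104 CPM in Ag and 179.5, 173, 186, 222 and 232 CPM in Ag+Costim, without overlap (log2 fold change 0.78, SE 0.25, adjusted p = 0.229). Tnpo1, or transportin 1, imports many RNA-binding proteins, and it was at 43.4, 67.4, 68.5, 47.4 and 73.5 CPM in Ag and 87.6, 83.5, 90.9, 96.5 and 104 CPM in Ag+Costim, again without overlap (log2 fold change 0.62, SE 0.17, adjusted p = 0.194; DESeq2 adjusted p = 0.019). Ipo7 imports ribosomal proteins among other cargo. It was at 23.8, 60.3, 58.2, 25.7 and 28.8 CPM in Ag and 64.1, 59.1, 55.6, 64.1 and 63.004 CPM in Ag+Costim. Ag replicates 2 and 3 lay within the Ag+Costim range of Ipo7 and replicates 1, 4 and 5 below it (log2 fold change 0.64, SE 0.28, adjusted p = 0.268). Of the 6 receptors, 5 had an unadjusted p under 0.05 and 4 did not overlap, and their median log2 fold change was 0.78. Of genes at 10 CPM or more, 20.3% were higher at that p and 11.3% were higher without overlap.

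**Figure D2:**
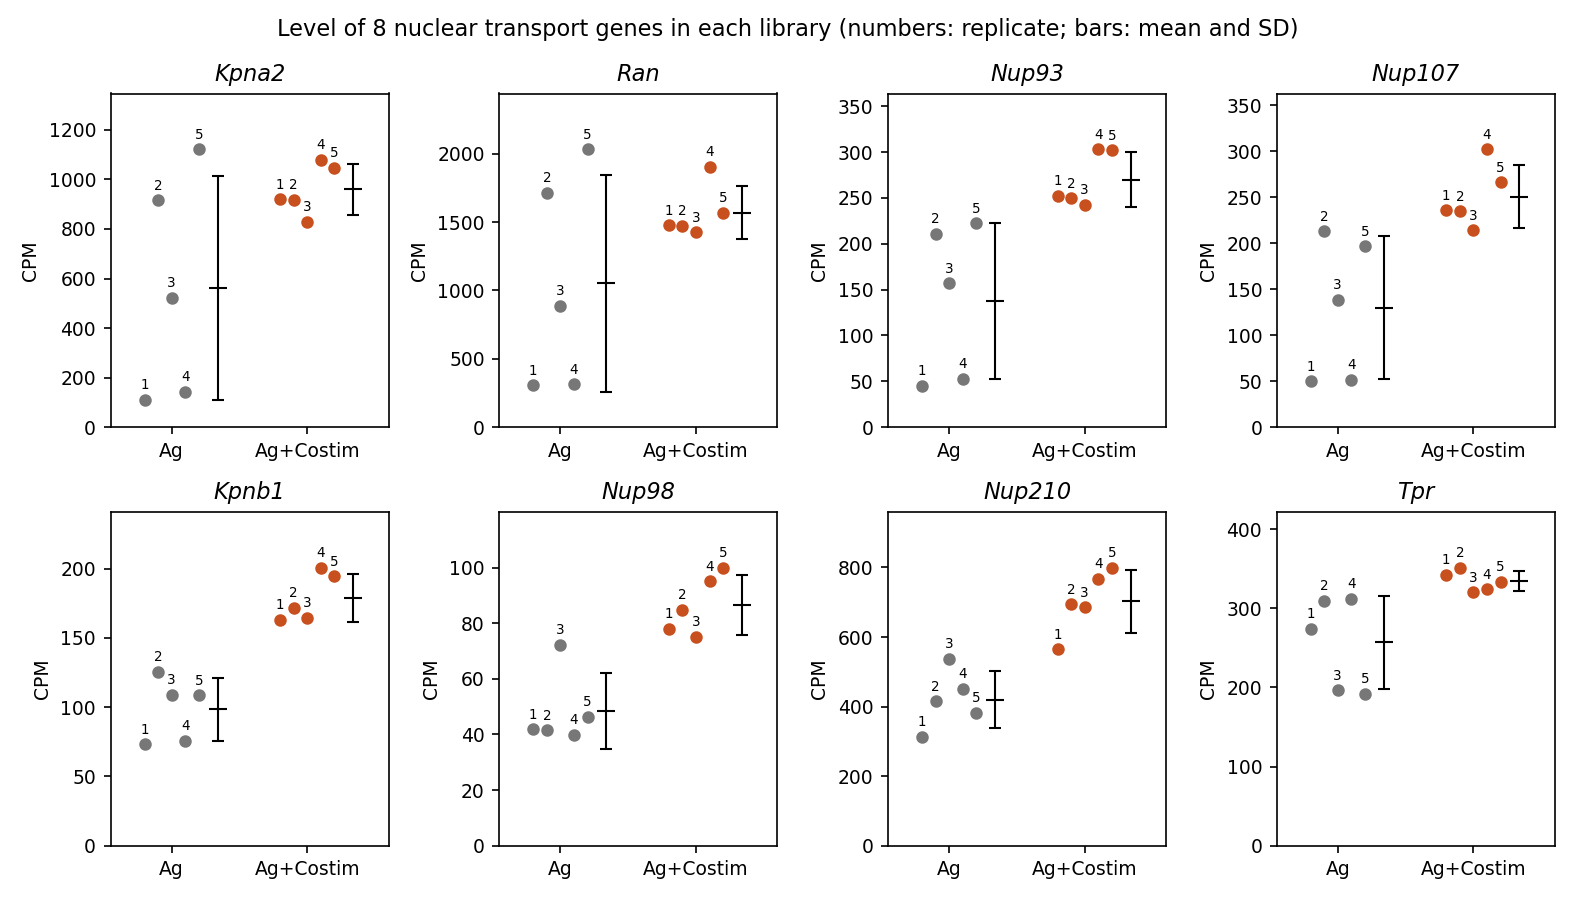
CPM of 8 members in each library (y axis, from 0). Points are libraries with their replicate number, and bars give the mean and SD. In the top row Ag replicates 1 and 4 sit lowest and replicates 2 and 5 near the Ag+Costim libraries, and in Kpnb1, Nup98, Nup210 and Tpr no Ag library reaches the Ag+Costim range.

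Promoters of 4 members are shown because they stand at the ends of this contrast: Kpnb1 and Nup98 did not overlap between the groups, and Ran and Kpna2, the most abundant, overlapped and ranged over 5 times within Ag. The sequences are those of RefSeq on GRCm38.p6, 250 bases before to 50 bases after the RefSeq start, read 5′ to 3′ on the gene's strand. Capitals mark matches on either strand. The CCAAT box was searched as CCAAT, the E box as CACGTG and the GC box as GGGCGG. For ETS factors the letters were CCGGAAG, for NRF1 GCATGCGC and for E2F any of TTTCCCGC, TTTGGCGC, TTTCGCGC or TTTGCCGC. The CHR element of cell cycle promoters was searched as TTTGAA. Overlapping matches were each counted.
Kpnb1 promoter, chr11:97187843-97188142, minus strand: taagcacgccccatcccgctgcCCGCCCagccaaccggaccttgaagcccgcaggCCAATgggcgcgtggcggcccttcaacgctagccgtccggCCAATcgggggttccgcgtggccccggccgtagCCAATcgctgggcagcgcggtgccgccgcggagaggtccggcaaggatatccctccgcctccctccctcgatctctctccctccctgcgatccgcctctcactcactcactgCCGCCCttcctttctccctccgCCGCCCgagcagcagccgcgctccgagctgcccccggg
Nup98 promoter, chr7:102210117-102210416, minus strand: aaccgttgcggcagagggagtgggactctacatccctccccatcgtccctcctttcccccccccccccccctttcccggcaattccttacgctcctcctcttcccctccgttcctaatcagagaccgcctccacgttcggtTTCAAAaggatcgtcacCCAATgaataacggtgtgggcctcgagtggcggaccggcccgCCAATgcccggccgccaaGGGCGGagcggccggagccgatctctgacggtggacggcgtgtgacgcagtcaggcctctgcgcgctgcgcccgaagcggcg
Ran promoter, chr5:129019906-129020205, plus strand: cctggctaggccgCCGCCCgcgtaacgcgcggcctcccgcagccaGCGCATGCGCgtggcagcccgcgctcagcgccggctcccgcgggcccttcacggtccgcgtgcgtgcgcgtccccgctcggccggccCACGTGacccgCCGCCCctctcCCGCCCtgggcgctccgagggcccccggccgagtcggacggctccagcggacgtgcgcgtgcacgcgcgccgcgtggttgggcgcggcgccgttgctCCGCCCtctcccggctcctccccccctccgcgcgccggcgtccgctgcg
Kpna2 promoter, chr11:106999476-106999775, minus strand: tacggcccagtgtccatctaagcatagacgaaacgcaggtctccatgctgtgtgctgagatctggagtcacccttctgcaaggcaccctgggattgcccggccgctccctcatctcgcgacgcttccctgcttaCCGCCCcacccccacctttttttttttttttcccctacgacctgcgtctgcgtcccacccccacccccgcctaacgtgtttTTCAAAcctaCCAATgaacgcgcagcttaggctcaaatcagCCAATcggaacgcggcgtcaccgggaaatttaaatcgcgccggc

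The Kpnb1 window held 3 CCAAT letters and 3 GC boxes, and G and C made up 72% of it. The Nup98 and Kpna2 windows each held 2 CCAAT letters, 1 GC box and 1 CHR match, at 66.3% and 57.7% G and C. Ran had no CCAAT letters, 1 E box, 4 GC boxes and 2 overlapping NRF1 matches (1 on each strand) in a window of 82% G and C. RefSeq promoters were used for 31 of the 37 members, taking the first start listed for a gene. Seh1l was left out before matching, and Cse1l, Nup210l, Nup35, Nup43 and Nup85 had no match. CCAAT was found in 14 of these 31 (45.2%), in 37.9% of the 27025 promoters of the table and in 40.1% of the 6603 promoters of genes at 10 CPM or more. The GC box was found in 24 (77.4%, against 35.9% and 66.8%), the E box in 6 (19.4%, against 7.24% and 11%), and the ETS letters in 6 (19.4%, against 9.12% and 23.4%). CHR letters were found in 10 (32.3%, against 18.1% and 12.4%), NRF1 in 5 (16.1%, against 2.80% and 6.72%) and E2F in 2 (6.45%, against 2.32% and 4.85%). A match is a run of letters and not a measured binding site.

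The Y complex, the outer ring of the scaffold, had 8 members with a median log2 fold change of 0.75. Of these, 4 did not overlap (Nup160, Nup107, Nup133 and Seh1l), where 11.3% of genes at 10 CPM or more were higher without overlap. Nup160 was at 30.9, 82.4, 67.6, 32.4 and 67.7 CPM in Ag and 103, 112, 95.7, 131 and 119 CPM in Ag+Costim, the largest increase of all members (log2 fold change 0.996, SE 0.28, adjusted p = 0.198; DESeq2 adjusted p = 0.018). Nup107 was at 49.8, 213, 139, 51.4 and 197 CPM in Ag and 236, 235, 214, 303 and 267 CPM in Ag+Costim (log2 fold change 0.95, SE 0.40, adjusted p = 0.266). Both genes were lowest in Ag replicates 1 and 4, and in Nup107 the distance from Ag replicate 2 to the lowest Ag+Costim library was less than 2 CPM. Sec13, a Y complex protein that also coats vesicles leaving the endoplasmic reticulum, was at 109, 289.6, 169.9, 116 and 351 CPM in Ag and 266, 268, 263, 303 and 256 CPM in Ag+Costim. Ag replicate 5 was the highest of all 10 libraries, and Sec13 had the smallest difference of the ring (log2 fold change 0.39, SE 0.32, adjusted p = 0.444). The other members had log2 fold changes of 0.92 (Nup133), 0.81 (Nup85), 0.69 (Seh1l, also part of a complex that controls mTORC1), 0.66 (Nup37) and 0.62 (Nup43). Adjusted p in the ring ran from 0.198 to 0.444.

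The inner ring had the highest median of the scaffold, 0.83 over 5 members. Of these, 3 did not overlap (Nup93, Nup205 and Nup188), where 11.3% of genes at 10 CPM or more were higher without overlap. Nup93, which links the ring to the central channel, was at 45.002, 211, 157, 52.8 and 222 CPM in Ag and 252.4, 249.8, 243, 303 and 302 CPM in Ag+Costim (log2 fold change 0.97, SE 0.42, adjusted p = 0.268). Nup188 and Nup205 are large scaffold proteins related to each other, with log2 fold changes of 0.83 and 0.94 and adjusted p of 0.193 and 0.254. Nup155 overlapped between the groups (log2 fold change 0.69, SE 0.35, adjusted p = 0.285). Nup35 was at 22.5, 43.8, 36.2, 21.95 and 60.9 CPM in Ag and 48.2, 52.6, 46.9, 62.4 and 51.7 CPM in Ag+Costim, and Ag replicate 5 lay inside the Ag+Costim range (log2 fold change 0.50, SE 0.27, adjusted p = 0.301).

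Central channel proteins Nup62 and Nup54 overlapped between the groups. Nup62 was at 51.9, 270.3, 168, 54.6 and 319 CPM in Ag and 272, 279, 302, 337 and 329 CPM in Ag+Costim (log2 fold change 0.81, SE 0.47, adjusted p = 0.319). Nup54 was at 24.9, 75.99, 45.1, 28.3 and 75.9 CPM in Ag and 81.6, 86.1, 74.7, 101 and 91.96 CPM in Ag+Costim (log2 fold change 0.80, SE 0.31, adjusted p = 0.257). In both, Ag replicates 2 and 5 lay near or within the Ag+Costim range and replicates 1 and 4 far below it. Nup62 overlaps Atf5 and Il4i1 in the annotation, and each of these was below 2 CPM in every library.

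Of the membrane ring, Nup210 did not overlap, whereas Ndc1 and Pom121 did. Nup210, a glycoprotein of the pore membrane, was at 313, 416, 537, 452 and 382 CPM in Ag and 565, 695, 686, 768 and 799.6 CPM in Ag+Costim (log2 fold change 0.74, SE 0.18, adjusted p = 0.154; DESeq2 adjusted p = 0.013). Unlike most members its highest Ag library was replicate 3, and its range within Ag was 1.71 times. Ndc1 was at 8.63, 58.3, 39.8, 7.91 and 55.6 CPM in Ag and 56.9, 57.6, 53.6, 74.6 and 67.3 CPM in Ag+Costim, a range of 7.37 times within Ag (log2 fold change 0.87, SE 0.52, adjusted p = 0.332). Pom121 was at 15.6, 32.4, 22.6, 15.7 and 25.4 CPM in Ag and 25.8, 35.9, 36.99, 29.3 and 28.01 CPM in Ag+Costim (log2 fold change 0.48, SE 0.22, adjusted p = 0.270).

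Nup98 (ENSMUSG00000063550.8, chr7:102119398-102210176) is made as a precursor with Nup96 that cuts itself into both proteins, and it binds the mRNA export factor Rae1. It was at 41.9, 41.5, 72.3, 39.96 and 46.3 CPM in Ag and 77.96, 84.9, 75.2, 95.1 and 99.96 CPM in Ag+Costim. Ag replicates 1, 2, 4 and 5 lay close together and replicate 3 above them, and no Ag library reached the Ag+Costim range (log2 fold change 0.84, SE 0.19, adjusted p = 0.147; DESeq2 adjusted p = 0.019). Rae1 was at 100.3, 185, 113, 106 and 245 CPM in Ag and 207, 200.8, 182, 223 and 200.2 CPM in Ag+Costim, with Ag replicate 5 the highest of all 10 libraries (log2 fold change 0.44, SE 0.25, adjusted p = 0.319).

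The cytoplasmic filaments and the nuclear basket had the smallest differences, with medians of 0.45 and 0.38 over 3 members each. Ranbp2, the largest filament protein, was at 57.2, 88.96, 86.4, 62.5 and 44.3 CPM in Ag and 71.7, 75.1, 68.3, 86.8 and 79.1 CPM in Ag+Costim, and Ag replicates 2 and 5 held the highest and the lowest of all 10 values (log2 fold change 0.17, SE 0.19, adjusted p = 0.591). Its 12 annotated pseudogenes were each below 0.5 CPM in every library. Nup88 was at 75.3, 166, 115, 83.6 and 186 CPM in Ag and 194, 183, 184, 218 and 207 CPM in Ag+Costim (log2 fold change 0.66, SE 0.25, adjusted p = 0.254), and its partner Nup214 had a log2 fold change of 0.45 (adjusted p = 0.230). Ag replicate 5 alone reached the Ag+Costim range in both. Tpr, which builds the basket, was at 274, 309, 196, 312 and 192 CPM in Ag and 343, 351, 320.2, 324 and 333 CPM in Ag+Costim. With TMM factors the groups did not overlap, though Ag replicates 2 and 4 were close to the lowest Ag+Costim library (log2 fold change 0.38, SE 0.17, adjusted p = 0.269). The difference of Tpr turned on the scaling, with a log2 fold change of 0.080 with total counts and 0.14 with upper quartiles. Nup50, a basket protein that helps release importin cargo, was at 79.1, 143, 107, 85.05 and 140.1 CPM in Ag and 162, 165, 156, 192 and 179.7 CPM in Ag+Costim, without overlap (log2 fold change 0.62, SE 0.19, adjusted p = 0.217; DESeq2 adjusted p = 0.025). Nup153 was at 64.1, 62.9, 76.3, 90.4 and 69.3 CPM in Ag and 87.3, 93.4, 85.3, 92.8 and 92.6 CPM in Ag+Costim, with Ag replicate 4 inside the Ag+Costim range (log2 fold change 0.31, SE 0.13, adjusted p = 0.264). The log2 fold change of Nup153 was 0.017 with total counts and 0.067 with upper quartiles.

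Nup210l and Nup62cl, relatives of Nup210 and Nup62, were barely detected. Nup210l was at 1.23, 0.607, 4.68, 1.45 and 0.159 CPM in Ag and 1.09, 0.909, 0.479, 0.402 and 0.71 CPM in Ag+Costim (log2 fold change -1.18, SE 0.77, adjusted p = 0.360). Without Ag replicate 3, its highest library, the log2 fold change of Nup210l was -0.26. Nup62cl was at 0.0553, 0, 0.801, 0 and 0.271 CPM in Ag and 0.316, 0.173, 0.0411, 0 and 0.269 CPM in Ag+Costim, from 0 to 101 counts a library (log2 fold change -0.48, SE 1.82, adjusted p = 0.877). The direction of Nup62cl turned without Ag replicate 3, where its log2 fold change was 0.97.

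Per unit of transcript length, as TPM (transcript counts divided by length and scaled to a common total), the members spanned a wide range of levels. Ran was the highest at 662 ± 378 TPM in Ag and 1008 ± 113 TPM in Ag+Costim (SD, 5 libraries a group), followed by Kpna2 at 409 ± 264 and 719 ± 74.9 TPM and Sec13 at 246 ± 65.5 and 311 ± 16.7 TPM. In Ag the SDs of Ran and Kpna2 were larger than the distance between their means, whereas in Ag+Costim the means of Ran, Kpna2 and Sec13 lay further apart than their SDs. Rangap1 was at 109 ± 37.8 and 171 ± 17.7 TPM, and Rcc1 at 75.2 ± 44.5 and 145 ± 16.7 TPM. Kpnb1 was at 28.8 ± 4.43 and 46.96 ± 4.25 TPM and Xpo1 at 33.2 ± 12.3 and 51.04 ± 6.64 TPM. The lowest of the 35 members was Pom121 at 6.65 ± 1.181 and 8.56 ± 1.37 TPM, next to Nup155 at 8.83 ± 4.51 and 11.8 ± 2.51 TPM. In Ag the distance between their means was smaller than the SD of Nup155 and larger than that of Pom121.

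The same order of Ag libraries ran through the members. Replicate 1 or 4 was the lowest Ag library in 32 of 35 members, as in 51.2% of genes at 10 CPM or more, and replicate 2 or 5 was the highest in 30, as in 67.2% of such genes. Both replicates 1 and 4 lay below every Ag+Costim library in 34 of 35, as in 61.1% of such genes. The highest Ag library lay 1.44 to 10.2 times above the lowest (median 2.82, over 2 times in 27 members and in 59.4% of such genes), whereas in Ag+Costim the same ratio was 1.09 to 1.68 (median 1.30, over 2 times in 0 members and in 2.97% of such genes). On the log2 scale the SD between libraries had a median over members of 0.65 in Ag and 0.16 in Ag+Costim, against 0.46 and 0.12 for genes at 10 CPM or more. It was larger in Ag in 37 of 37 members and in 96.1% of all genes tested.

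**Figure D3:**
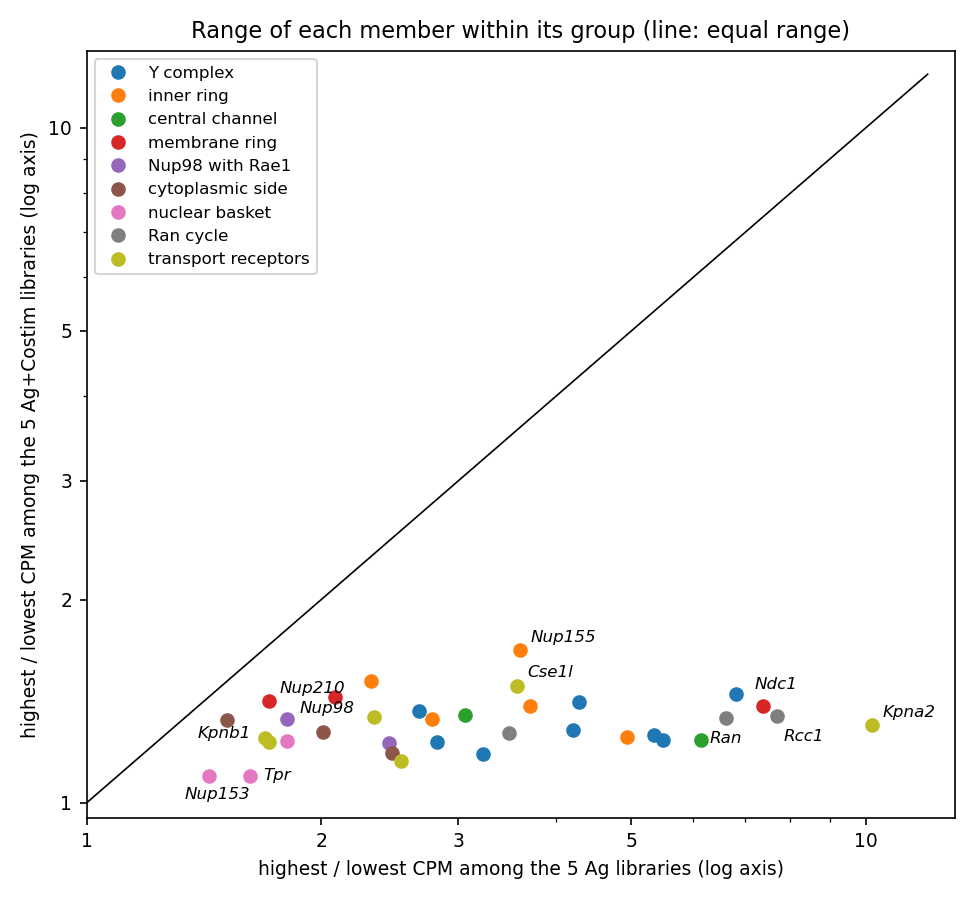
Ratio of the highest to the lowest CPM among the 5 Ag libraries (x axis) and among the 5 Ag+Costim libraries (y axis), both on log axes, for the 35 members at 10 CPM or more, coloured by role. All points lie below the line of equal ranges, from Nup153 (1.44 and 1.09) to Kpna2 (10.2 and 1.30).

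Markers of cycling cells followed the same order of libraries. The 18 cycling markers, among them Mki67, Top2a and Cdk1, summed to 1487, 10811, 6846, 1597 and 11866 CPM in Ag replicates 1 to 5 and to between 10939 and 13752 CPM in Ag+Costim. The 35 members summed to 2467, 7279, 5145, 2815 and 7786 CPM in Ag replicates 1 to 5 and to between 7545 and 9397 CPM in Ag+Costim. All 18 cycling markers had a log2 fold change above 0 (median 0.90), as had 75.6% of genes at 10 CPM or more. Of the 18 markers, 5 did not overlap, where 11.3% of such genes were higher without overlap. In bulk samples a smaller share of cycling cells and less of these RNAs per cell cannot be told apart, and the part of cycling cells in the members' differences was not tested.

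**Figure D4:**
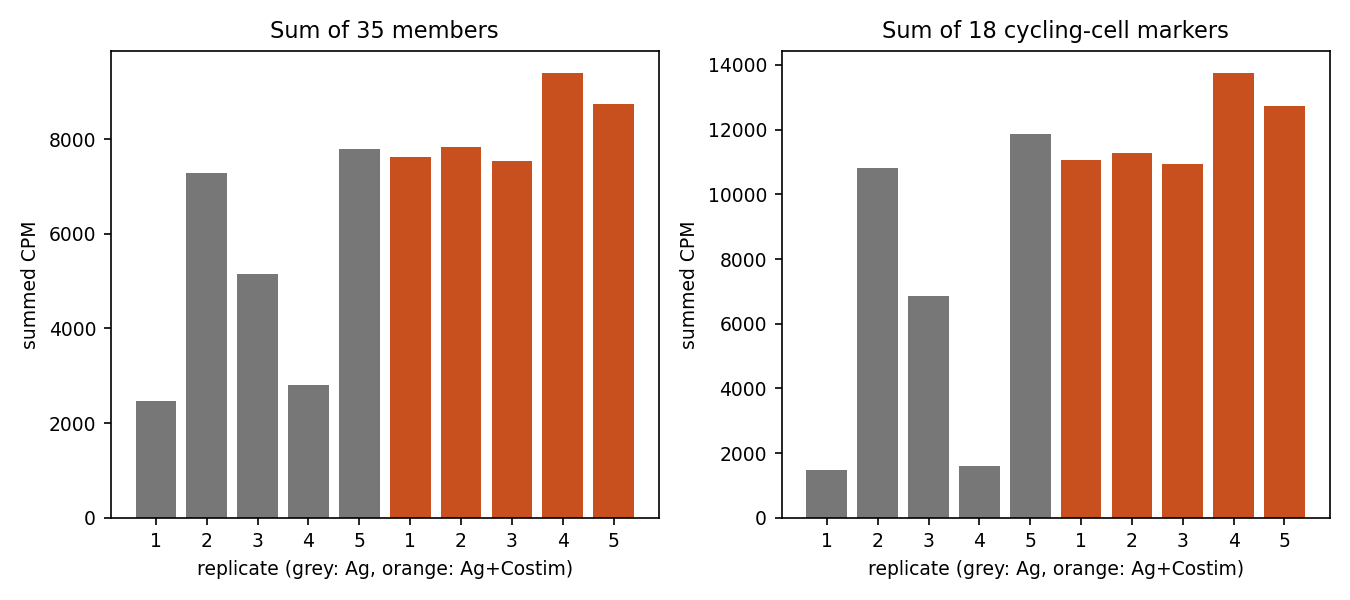
Summed CPM of the 35 members (left) and of 18 markers of cycling cells (right) in each library, grey for Ag and orange for Ag+Costim. Ag replicates 1 and 4 are lowest in both panels, at 2467 and 2815 CPM for the members and 1487 and 1597 CPM for the markers.

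How many members passed the test turned on the Ag libraries used. Without Ag replicates 1 and 4, which had the lowest cycling markers, 0 of 37 members had an adjusted p under 0.05 (lowest 0.092) and the median log2 fold change was 0.35, against 0.69 with all 10 libraries. Without Ag replicates 2 and 5, which had the fewest genes detected and also the highest cycling markers, 34 members were called higher and 1 lower (Nup210l), with a median of 1.19. In that fit 61.8% of genes at 10 CPM or more were called higher. Both pairs were chosen after the data were seen, and the values of the members are part of what sets these libraries apart.

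Levels of partner genes relative to each other, as ratios of TPM, varied less between Ag+Costim libraries than between Ag libraries in the pairs given here. More pairs were computed, and Kpna2 to Kpnb1 and Ran to Xpo1 had the largest spread in Ag. On the log2 scale Ran to Rcc1 had SDs of 0.361 in Ag and 0.0877 in Ag+Costim. Ran to Rangap1 had 0.472 and 0.0772, Kpna2 to Cse1l 0.685 and 0.0996, and Tpr to Nup153 0.325 and 0.0653. The SD of single genes was also larger in Ag in 96.5% of genes at 10 CPM or more. Ratios of genes outside the pathway were not compared, so the pattern cannot be called particular to these partners. The ratio of Kpna2 to Kpnb1 was 4.11, 20.9, 13.8, 5.26 and 29.8 in Ag replicates 1 to 5 and 16.1, 15.1, 14.4, 15.3 and 15.5 in Ag+Costim replicates 1 to 5. Its SD on the log2 scale was 1.24 in Ag and 0.0595 in Ag+Costim. The ratio of Ran to Xpo1 was 10.6, 26.2, 13.4, 10.2 and 48.6 in Ag and 20.6, 21.3, 19.04, 21.4 and 16.96 in Ag+Costim, with SDs of 0.974 in Ag and 0.141 in Ag+Costim. Within Ag, Kpna2 ranged 10.2 times and Ran 6.62 times, against 1.71 times for Kpnb1 and 2.34 times for Xpo1. Within the Y complex, the ratio of Nup107 to Nup133 was 3.51, 5.40, 3.70, 4.11 and 4.03 in Ag and 4.63, 4.57, 4.15, 4.65 and 4.19 in Ag+Costim, with SDs of 0.241 in Ag and 0.0809 in Ag+Costim. The ratio of Nup214 to Nup88 ran the other way across the Ag libraries, at 0.337, 0.167, 0.313, 0.343 and 0.198, and was 0.188, 0.214, 0.199, 0.188 and 0.229 in Ag+Costim. It was highest in Ag replicates 1 and 4.

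Other genes of the pathway gave similar values. The 31 further importins, exportins, Ran regulators and pore proteins had a median log2 fold change of 0.55, with 28 above 0. At an unadjusted p under 0.05 there were 19, all higher in Ag+Costim, and 12 did not overlap. Of all genes tested, 37.7% lay above 0, 7.89% were higher at that p and 4.48% were higher without overlap. For genes at 10 CPM or more these shares were 75.6%, 20.3% and 11.3%. None of the 31 had an adjusted p under 0.05, and the lowest was 0.117 for Kpna6, another importin alpha. Nupl1, the symbol under which Nup58 stands in this annotation, was at 0 to 11.5 CPM. Nup42 stands there as Nupl2, at 9.53 to 27.5 CPM, so neither is among the members.

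Transcript usage of the members was tested with edgeR's diffSpliceDGE in 34 members that had at least 2 transcripts past the filter. None was called (0.297% of the 10441 genes tested were), and 6 had an unadjusted p under 0.05, which 6.42% of genes had. The 3 lowest were Nup98 (adjusted p = 0.393), Nup160 (0.560) and Nup93 (0.638). In Nup98 the longest transcript, Nup98-203, which encodes the precursor with Nup96, made up 73.5, 53.4, 61.6, 77.5 and 76.2% of the gene's counts in Ag and 76.5, 76.7, 70.7, 78.4 and 80.6% in Ag+Costim. Ag replicates 2 and 3 were low, and the groups overlapped. Nup160-201 held over 96% of its gene's counts in every library. Nup93-201 held 94.1% to 98.9% in Ag and 76.8% to 99.6% in Ag+Costim, and Ag+Costim replicate 5 was the lowest.

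Nup35 (ENSMUSG00000026999.14, chr2:80617236-80658906) is described because it was the only member called by limma's diffSplice (adjusted p = 0.019), a gene singled out after its values were seen. By edgeR's diffSpliceDGE it was not called, with an unadjusted p of 0.177 and an adjusted p of 1, and its adjusted p was 0.907 to 1 under the edgeR alternatives. Nup35-204, an annotated transcript without a coding sequence that keeps an intron, held 33.4, 29.2, 20.1, 30.6 and 36.4% of the gene's counts in Ag and 14.6, 12.05, 13.8, 8.23 and 6.63% in Ag+Costim. Every Ag library was above every Ag+Costim library, with means of 29.9% ± 6.17 in Ag and 11.1% ± 3.48 in Ag+Costim (SD, 5 libraries a group). The coding transcript Nup35-201 held 65.4, 69.8, 79.4, 67.7 and 63.2% in Ag and 84.6, 87.3, 84.8, 91.4 and 92.98% in Ag+Costim.

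The intron that Nup35-204 keeps lies at chr2:80656078-80657188 (GRCm38, plus strand), between exons of Nup35-201, and has 1111 bases. Its edges are shown because this stretch separates both transcripts, with 12 exonic and 18 intronic bases at each edge, from the GENCODE transcript and with the first and last 2 bases of the intron in capitals.
Upstream edge, chr2:80656066-80656095: tgtatagataaaGTaagttgtgggtgattt
Downstream edge, chr2:80657171-80657200: gtttctttatttctccAGaatgtcatggaa
Nup35-204 also differs from Nup35-201 in its first exons, which begin upstream at chr2:80617236, where Dusp19 overlaps on the same strand. Dusp19 was at 13.5 to 22.2 CPM in the 10 libraries. The estimated counts divide reads between the transcripts over all their exons, so the share is not a direct count of the intron. The exons on either side of the intron had a percent spliced in (PSI) of 0.990 and 0.989 in Ag and of 0.9994 and 0.9995 in Ag+Costim, and the PSI table holds no retained intron event of Nup35.

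**Figure D5:**
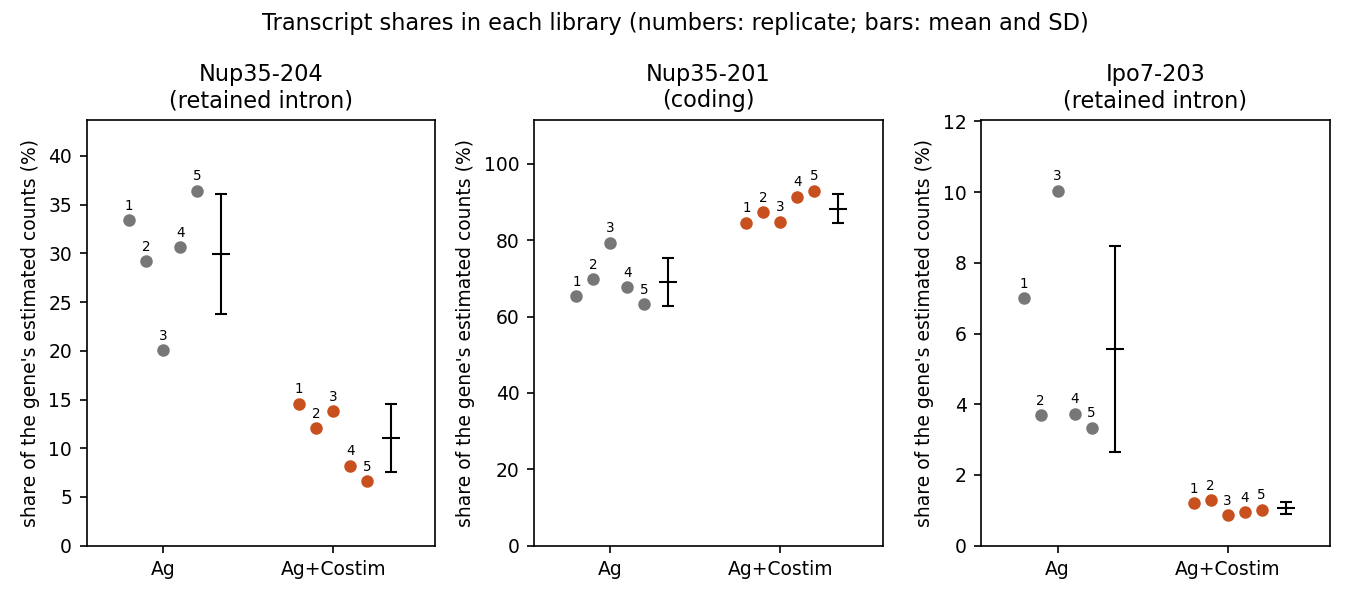
Share of the gene's estimated counts on 3 transcripts (y axis, percent, from 0) in each library. Points carry replicate numbers, and bars give the mean and SD. Nup35-204 lies between 20.1% and 36.4% in Ag and between 6.63% and 14.6% in Ag+Costim, Nup35-201 moves the other way, and Ipo7-203 is lower in all 5 Ag+Costim libraries.

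Transcripts annotated as retained introns had lower mean shares in Ag+Costim across the members, but mostly with overlap between the groups. Their mean share of a gene's counts was lower in 27 of 27 members that have such transcripts, and in 90.5% of 5382 genes at 10 CPM or more that have them. In 6 members the groups did not overlap (Cse1l, Ipo7, Nup155, Nup214, Nup35 and Tpr), a pattern in 3.47% of those genes. The share was 9.01% ± 4.53 in Ag and 2.56% ± 0.52 in Ag+Costim for Ipo7 (SD, 5 libraries a group), 1.6% ± 1.08 in Ag and 0.358% ± 0.097 in Ag+Costim for Cse1l and 1.54% ± 0.725 in Ag and 0.629% ± 0.164 in Ag+Costim for Tpr. For Nup214 it was below 0.3% in every library. Some lower means rested on part of the Ag libraries. In Nup205 the means were 3.18% and 3.13%, with Ag replicate 3 at 8.71%. In Nup133 Ag replicates 2 and 5 (0.444% and 0.245%) lay below every Ag+Costim library, as they did in Nup43 (0.67% and 0.385%). Ipo7-203, a single-exon transcript of 4159 bases inside the gene, held 7.002, 3.69, 10.04, 3.73 and 3.33% in Ag and 1.19, 1.29, 0.856, 0.947 and 1.01% in Ag+Costim. Transcripts annotated for nonsense-mediated decay existed in 8 members, were lower on average in 2, and did not separate the groups in any.

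Splicing events of the members were nearly alike in both groups. The PSI of an event is the fraction of transcripts that include it, with 1 value per group in the table and no replicate error. For alternative starts and ends within an exon, it is the share that uses that start or end. The table held 801 events of members, 717 of them core exons. The median absolute difference was 0.0020, and 0.0047 over all events. A difference over 0.05 was found in 24 member events (3.00%) and in 11.9% of all events. Nup210l held 8 of the 24 and Nup62cl 2, and without these genes the share was 1.80%. All events include genes at any level and events of every type, and no share matched for level or type was computed. Past both thresholds of the study, a PSI difference over 0.05 with a probability over 0.9, were 2 member events, where 1.05% of the 138940 events passed. Both were core exons of Nup210l, which was at 0.159 to 4.68 CPM.

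These 2 exons are shown because they are the only member events past the thresholds, read from GENCODE transcripts on the plus strand. Their PSI was 0.927 in Ag and 0.399 in Ag+Costim for the exon of 132 bases, and 0.901 and 0.523 for the exon of 81 bases. Both lengths keep the reading frame.
Nup210l exon of 132 bases, chr3:90182480-90182611: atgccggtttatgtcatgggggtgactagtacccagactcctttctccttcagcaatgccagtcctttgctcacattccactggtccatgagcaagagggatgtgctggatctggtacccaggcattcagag
Nup210l exon of 81 bases, chr3:90181883-90181963: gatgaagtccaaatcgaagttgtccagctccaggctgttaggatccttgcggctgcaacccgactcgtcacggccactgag
With 59 to 555 counts for the gene in a library, few reads lie behind these values.

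In abundant members the differences were small and lay mostly at transcript ends. In Nup62, 2 alternative ends of the last exon lay 5 bases apart. The upstream end (chr7:44828487-44830804) had PSI values of 0.554 (Ag) and 0.698 (Ag+Costim). The downstream end had 0.396 (Ag) and 0.269 (Ag+Costim). These values divide transcripts between neighbouring ends and do not mean that the exon is left out. In Xpo1, a retained intron event of 244 bases near the start of the gene (chr11:23256168-23256411) had PSI values of 0.803 (Ag) and 0.915 (Ag+Costim). It was the 1 of 2 retained intron events of members with a difference over 0.05. The segments directly before and after it changed the same way, from 0.759 (Ag) to 0.829 (Ag+Costim) and from 0.806 to 0.929. Xpo1 has no transcript among the retained intron shares described above, so this event cannot be set against those shares. Rcc1 likewise had 2 alternative ends, 4 bases apart. The upstream end (chr4:132331923-132333002) had PSI values of 0.859 (Ag) and 0.981 (Ag+Costim), and the downstream end 0.142 (Ag) and 0.0193 (Ag+Costim). None of these passed the probability threshold.

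In Nup98 an alternative donor adds 51 bases to an exon (chr7:102180377-102180427, minus strand). The segment is shown because both measures of splicing cover it and give unlike levels.
Nup98 51-base segment, chr7:102180377-102180427: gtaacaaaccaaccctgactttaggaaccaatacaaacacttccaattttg
Its PSI was 0.158 in Ag and 0.222 in Ag+Costim. Transcripts that contain the 51 bases held 88.9, 80.5, 87.97, 85.3 and 88.5% of the gene's counts in Ag and 92.5, 88.4, 88.6, 91.05 and 85.8% in Ag+Costim, with means of 86.2% ± 3.49 in Ag and 89.3% ± 2.59 in Ag+Costim (SD, 5 libraries a group). Both measures were higher in Ag+Costim, and the groups overlapped in the transcript shares. The shares follow whole annotated transcripts and PSI follows reads across the junctions, and the cause of the unlike levels was not tested.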

How the data were processed

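Poly(A) RNA was prepared with the SMART-Seq v4 and Nextera XT kits, which do not mark the strand, so antisense and overlapping genes cannot be told apart. Per the labels' processing notes, the authors used HISAT2 2.1.0, SAMtools 1.9 and StringTie 2.1.0 with mm10. The deposited expected counts (estimated counts per gene and transcript) come from read coverage, are whole numbers and were not normalized, so totals are not numbers of reads. The deposited PSI values, from the authors' Whippet run, are 1 fraction per group with libraries combined. Whippet's deposited probability, a score, was used only as a threshold. Its difference of PSI was used only to check the direction, and its entropy and the sequencing facility's sheet were not used.

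Gene counts were tested on the whole table with edgeR 4.0.16 (filterByExpr, TMM, robust quasi-likelihood test, R 4.3.3), with Benjamini-Hochberg adjustment over the 24262 genes tested. The 26345 entries without a GENCODE vM21 identifier, at most 0.308% of a library's counts, were left out. DESeq2 1.42.0 and limma 3.58.1 were alternatives. On simulated counts the edgeR step was checked with 200 changed genes. CPM values use TMM factors. "Without overlap" means that every library of one group lay above every library of the other. Transcript usage was called at a Simes adjusted p under 0.05 with a change of mean share over 0.1 as a fraction, and TPM values were computed from transcript counts per length. The labels list 15 libraries, and the fits held 10, since Naive counts were not analysed here and the planned shared fit with them was not run.

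The members and all lists were chosen with earlier results of these data known. Any member could be named with its group values. Values in every library are given for the Ran cycle, the transport receptors, Nup98, Nup153, Nup210, Nup62, Nup93, Nup107, Nup50, Tpr, Ranbp2 and Pom121, and for the members with the highest and lowest fold change in each role group. Promoter sequences are RefSeq's, and other sequences are GENCODE's.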

Additional observations from a re-analysis of the deposited data

Results flagged for a closer look

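Among 114 sets of 5 values (members and named transcripts, in each group), 9 held 1 library far from the other 4 by Dixon's criterion, and chance alone gives about 1 in 20. The sets are not independent, since shares of transcripts of the same gene, as in Nup93 and Nup107, mirror each other. No excess over chance can therefore be read from the 9. At the gene level these were Nup98 in Ag replicate 3 at 72.3 CPM, Nup210l in Ag replicate 3 at 4.68 CPM, Nup43 in Ag+Costim replicate 4 at 56.2 CPM and Sec13 in Ag+Costim replicate 4 at 303 CPM. All 4 were the highest library of their group. Among transcripts, Nup160-201 was low in Ag replicate 3 at 96.3% of the gene's counts. Nup93-201 was low in Ag+Costim replicate 5 at 76.8%, where Nup93-207, which codes for the same length, was high at 22.7%. Nup107-201 was low in Ag replicate 1 at 78.3%, where Nup107-204, annotated for nonsense-mediated decay, was high at 21.4%. The causes of these values were not tested.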

How the results depend on the processing

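With all 10 libraries, 0 members had an adjusted p under 0.05 under every edgeR scaling, filter and block tried, 7 with DESeq2 and 33 with limma voom with quality weights, and 35 without Ag replicates 2 and 5 together. The 19 members with an unadjusted p under 0.05 became 29 with no filter on low counts, 35 with voom, 35 without Ag replicates 2 and 5, and 10 to 28 when 1 library was left out (10 without Ag+Costim replicate 4, 12 without Ag+Costim replicate 5). The 15 members higher without overlap became 7 with DESeq2 size factors and with DESeq2, 3 with upper quartiles, 23 with no filter, 33 without Ag replicates 2 and 5, and 12 to 19 when 1 library was left out. The members' median kept its sign under every alternative (0.35 to 1.31), and relative to genes at 10 CPM or more it lay 0.21 to 0.86 higher. Leaving out 1 library gave medians of 0.53 to 0.89. Ranbp2 reversed with total counts (-0.12) and upper quartiles (-0.071). With total counts Tpr was at 0.080 and Nup153 at 0.017. Nup62cl, at most 0.801 CPM, reversed with no filter (0.49), voom (2.91), the replicate block (1.11) and without Ag replicate 3 (0.97), and ran from -0.85 to 0.97 when 1 library was left out.

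Transcript usage calls went from 0 to 1 with limma diffSplice (Nup35) and without Ag replicate 1 (Nup107, adjusted p = 0.0079). Both PSI events past the thresholds stayed past a probability over 0.95 and a difference over 0.1. The labels number the libraries 1 to 5 in both groups, but same-numbered libraries did not deviate together (correlations of 0.21, -0.012, -0.20, -0.44 and 0.049). These correlations cannot exclude that same-numbered libraries were paired in their preparation. With the replicate block, 0 members had an adjusted p under 0.05, 23 had an unadjusted p under 0.05, the median was 0.87 and 0 members were called for transcript usage. Causes of these changes were not tested. Members with few counts, such as Nup62cl and Nup210l, are measured with low precision.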
